A study of Mus musculus with 4 samples.

Results

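The comparison described here set the mitral valve of mice with 2 mutant copies of the fibrillin-1 gene against that of mice with 1 mutant copy. Total RNA from murine mitral valve had been hybridised to 4 one-colour oligonucleotide arrays. The homozygous group (Hom) was 1 array labelled Fbn1 C1039G/C1039G, the heterozygous group (Het) was 2 arrays labelled Fbn1 C1039/+, and the wild-type group (WT) was 1 array labelled Fbn1 +/+. Neither Het label names the residue that replaces the cysteine, and the allele was assumed to be the one of Hom. No label gave the age, sex, strain or treatment of the mice, or said whether an array held RNA of 1 animal or of a pool. Of the 4 arrays, Hom and both Het arrays entered the comparison, 3 in all, and the WT value is printed beside them without being part of it. The probe sets annotated to 1 gene, with control probe sets left out, numbered 20380 of 22690 and read 12393 genes. Of these genes, 7314 had a mean intensity over the 4 arrays of at least 62.6, the median over all non-control probe sets, and were kept. A difference was counted only where Hom lay above both Het arrays or below both.

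Fibrillin-1 is a large glycoprotein of the extracellular matrix. It polymerises into microfibrils, which form the scaffold on which elastin is laid down in elastic fibres and which bind the latent complexes of TGF-beta and BMP growth factors. In the mitral valve, interstitial cells make the collagens, proteoglycans and elastic fibres of the leaflet, and endothelial cells cover its surface. Cysteine substitutions in fibrillin-1 cause Marfan syndrome in people, of which mitral valve prolapse is a common feature. The transcript of fibrillin-1 was not analysed here, as no probe set used bears its name.

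Values are the deposited intensities on their linear scale. Wherever 4 are listed, the first is WT, the last is Hom, and the Het replicates 1 and 2 stand between them. The margin of a gene is the log2 distance from Hom to the nearer of the Het arrays, so a margin of 1 is a difference of 2-fold from the nearer array and a larger one from the other. Intensities of different probe sets cannot be set against each other, and values below a floor of 19, the 25th percentile of all values, were raised to it before log2 was taken. With 1 Hom array, an exact permutation test of 1 array against 2 cannot give a p below 0.333, so differences are described by their size and by the distance between the Het arrays.

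Het replicate 2 stood apart from the other arrays. It was at least 2-fold from Het replicate 1, which has the same genotype label, at 592 genes (8.09%), and from Hom at 452 (6.18%), whereas Hom and Het replicate 1 were 2-fold apart at 102 (1.39%). The SD of the log2 differences over genes was 0.58 between the Het arrays and 0.36 between Hom and Het replicate 1. The ratio of the 3' to the 5' probe set of beta-actin, which is higher in degraded RNA, was 3.04 in Het replicate 2 and 2.16 to 2.25 on the others. The same ratio of Gapdh was 4.65 in Het replicate 2 and 3.19 to 4.18 on the others, with WT the nearest to it. Its summed intensity over 37 cardiomyocyte markers was 31990, against 65030 to 83439 on the others, and over 27 macrophage and myeloid markers 15053 against 7674 to 8087. In bulk tissue, fewer cells of a type and less RNA per cell cannot be told apart. A gene counted here had to differ from Het replicate 1 as well, and the difference from each Het array is given where they disagree. Transcripts tied to sex also placed Hom outside the Het range. Xist, which is transcribed from the inactive X chromosome, read 917.4, 898.2, 935.3 and 598.4, and the Y-linked Eif2s3y read 96.2, 120.5, 113.5 and 164.2. Both were chosen after their values were seen, and the part of sex in the results was not tested.

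Over all genes kept, Hom lay above both Het arrays at 2231 (30.5%), below both at 1810 (24.7%) and between them at 3273. These shares are the background against which the gene lists below are read. They depend on the scaling: with each array centred on the common median, they were 18.7% above and 37.4% below. At a size of at least 2-fold from the nearer Het array, 15 genes (0.205%) lay above and 12 (0.164%) below. limma's moderated test, which takes its spread from the Het pair and assumes that the lone Hom array varies like it, called 0 of 7314 genes (0%) at an adjusted p of 0.05. At an unadjusted p of 0.05 it passed 68 genes, 35 higher and 33 lower in Hom, where 366 would pass by chance. No gene is therefore said to have changed between the genotypes.

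**Figure D1:**
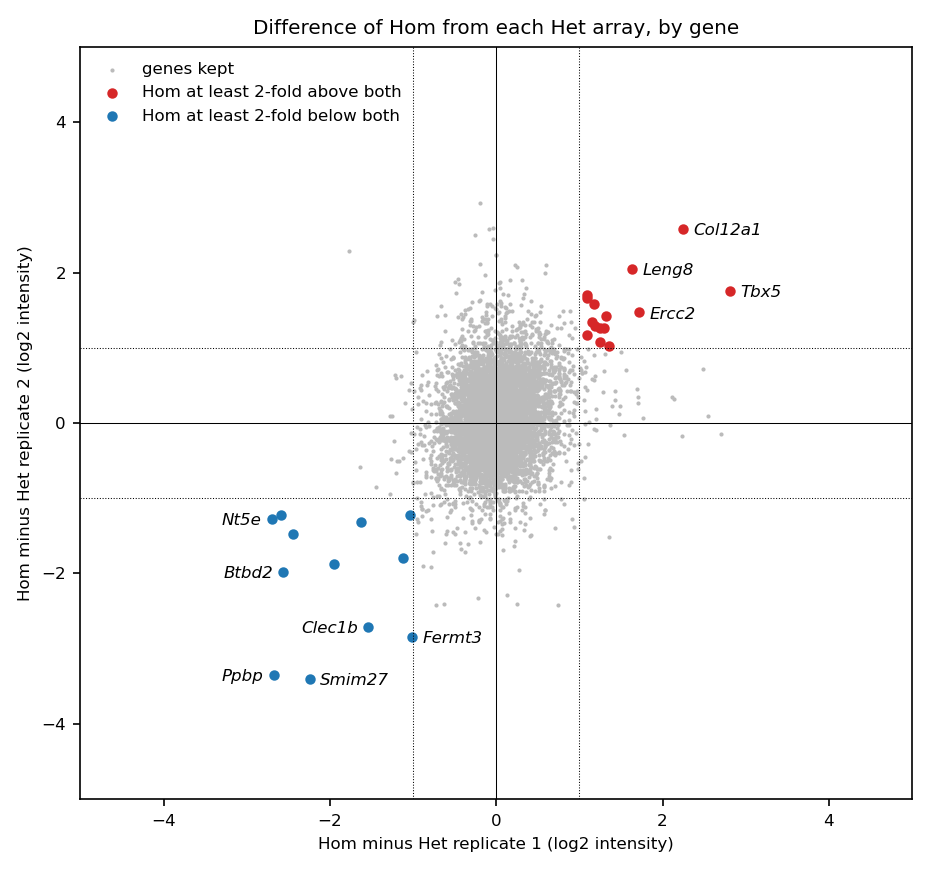
Each point is 1 of the 7314 genes kept, placed by the log2 difference of Hom from Het replicate 1 (horizontal axis) and from Het replicate 2 (vertical axis). Dotted lines mark 2-fold. The 15 red genes are at least 2-fold above both Het arrays and the 12 blue ones at least 2-fold below both. The cloud is wider on the vertical axis, with an SD of 0.54 against 0.36.

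The gene with the largest margin above was Col12a1, which encodes the chain of collagen XII, a fibril-associated collagen that lies on the surface of collagen I fibrils in tendon and other loaded tissue. It read 73.3, 61.5, 48.8 and 291.1. WT and both Het arrays lay close together and Hom alone stood high, 4.73-fold above the nearer Het array and 1.99 log2 units above WT. The mean used as the filter includes Hom. Without Hom, the mean of Col12a1 is under 62.6, so the gene was kept only through its Hom value. The log2 difference from the mean of the Het arrays was 2.41 (SE 0.43, limma adjusted p = 0.631).

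Tbx5, a T-box transcription factor needed for the formation of the heart and forelimb, had the next margin. It read 168.0, 24.3, 50.6 and 170.8. Here WT and Hom had nearly the same value and both Het arrays were low, Hom being 3.38-fold above the nearer (log2 difference from the Het mean 2.28, SE 0.51, limma adjusted p = 1). A second probe set of Tbx5, too dim to pass the filter, read 17.9, 28.0, 3.4 and 32.7.

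Leng8 read 89.5, 41.6, 31.1 and 129.2, a margin of 1.63. Ercc2, a helicase of the transcription and DNA repair factor TFIIH, read 79.3, 34.0, 40.4 and 112.1, a margin of 1.47. In both genes the Het arrays were the lowest of the 4 and Hom the highest. Slc41a3, a magnesium transporter, read 345.8, 129.1, 120.6 and 322.0, with WT and Hom together and more than 2-fold above both Het arrays. A second Slc41a3 probe set above the filter did not do so, with 82.5, 71.9, 46.8 and 55.4. Rapgef3, which encodes Epac1, a Rap exchange factor activated by cyclic AMP, read 95.5, 104.1, 105.2 and 254.5. Its 3 other probe sets did not put Hom above both Het arrays. A dim one, under the filter, read 63.9, 86.1, 36.9 and 16.7, with Hom below both. The difference of Rapgef3 from the Het mean was -0.17 with median centring, where another probe set stood for the gene. The probes of the set shown first can cross-hybridise with other transcripts.

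The other 9 genes above had margins between 1.03 and 1.25. Muscle genes among them were Cmya5, a protein of the sarcomere's edge, at 125.7, 78.2, 67.8 and 173.1, and Atp2a1, the calcium pump of fast skeletal muscle, at 101.3, 65.6, 62.3 and 139.9. Cxcl13, the chemokine that draws B cells into lymphoid follicles, read 100.7, 84.1, 55.1 and 179.2, so that Hom was 2.13-fold above the nearer Het array and 0.83 log2 units above WT. A second, dimmer Cxcl13 probe set read 31.7, 48.9, 14.7 and 27.1, with Hom between the Het arrays. Chmp1a, a subunit of the ESCRT-III membrane-cutting machinery, read 206.3, 93.4, 70.5 and 210.6, again with WT beside Hom. Clec16a, which acts in the disposal of mitochondria, the tyrosine phosphatase Ptpn21, the adhesion protein Clstn3, the basic helix-loop-helix factor Ascl3 and Mta1, a subunit of the NuRD chromatin remodelling complex, made up the remainder. At the 2-fold limit, Mta1 lay just inside with a margin of 1.03 and Ffar2, a receptor for short-chain fatty acids, just outside with 0.98.

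**Figure D2:**
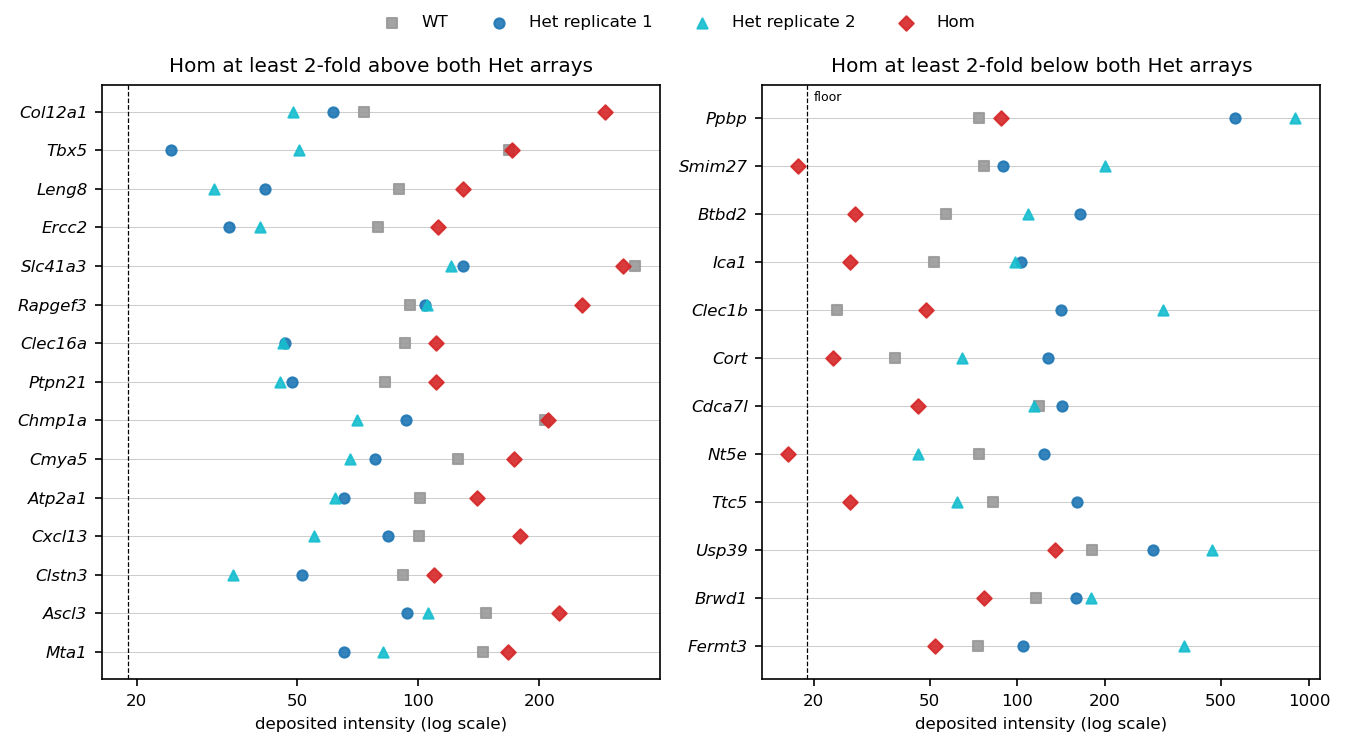
Deposited intensity on a log axis for each of the 15 genes at least 2-fold above both Het arrays (left) and the 12 at least 2-fold below both (right), with 1 point for each array. The dashed line is the floor of 19. The Hom diamonds stand apart from both Het symbols in every row, and Smim27 (17.7) and Nt5e (16.3) are below the floor in Hom.

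The largest margin below was that of Ppbp, the platelet basic protein, a chemokine precursor that platelets store in their alpha granules. It read 73.7, 558.6, 896.2 and 87.6. Both Het arrays were high, and Hom and WT were low and near each other. Hom was 6.38-fold below the nearer Het array, with a log2 difference from the Het mean of -3.01 (SE 0.46, limma adjusted p = 0.372, the lowest of any gene). Over 9 alternative settings, the limma adjusted p of Ppbp ran from 0.00341 to 1 and passed 0.05 in 2, with quantile normalization (0.0395) and with a trended, robust prior (0.00341).

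Clec1b encodes CLEC-2, the platelet receptor for podoplanin, and read 24.1, 141.6, 317.0 and 48.6. Fermt3, or kindlin-3, which activates integrins in platelets and leukocytes, read 73.5, 104.8, 373.2 and 52.0, and 2 dimmer probe sets of it read 11.9, 57.4, 77.1 and 20.6 and 19, 91.5, 110.0 and 15.8. All 3 Fermt3 probe sets placed Hom at least 2-fold below both Het arrays. The probes of the first and last of them can cross-hybridise with other transcripts. Just short of the 2-fold limit was Pf4, platelet factor 4, at 964.7, 1401, 1999 and 721.0, a margin of -0.96. Pf4 read well above the floor on every array, with Hom the lowest of the 4.

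Fermt3 and the remaining genes below belonged to no list used here. Btbd2, a BTB domain protein, read 56.9, 163.8, 109.0 and 27.7. Ica1, an islet cell autoantigen of the secretory pathway, read 51.9, 103.0, 98.2 and 26.7, and its second probe set, at 42.4, 38.3, 30.9 and 37.2, had Hom between the Het arrays. Smim27, a small membrane protein, read 77.1, 89.6, 200.5 and 17.7, at least 4.72-fold lower in Hom than in the nearer Het array because Hom was below the floor. Nt5e, the surface enzyme CD73 that makes adenosine from AMP, read 73.8, 123.5, 45.7 and 16.3, at least 2.41-fold lower. The neuropeptide Cort, the Myc partner Cdca7l, Ttc5, the splicing factor Usp39 and the bromodomain protein Brwd1 had margins between -1.47 and -1.04. The probes that read Usp39 can also cross-hybridise, and its other probe set read 105.0, 158.6, 99.8 and 118.1. Just inside the 2-fold limit was Fermt3 (-1.01), and just outside it were Pf4 (-0.96), the single-strand DNA binding protein Rpa2 (-0.95) and Serpinb6b (-0.95).

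Most of these 27 genes had low signal. The mean intensity over the 4 arrays was under 200 at 24 of the 27, compared with 52.7% of all genes kept, and 17 stayed under 200 on every array. Among the genes above, Col12a1, Leng8, Ercc2, Clec16a, Ptpn21 and Clstn3 reached the filter of 62.6 only through their Hom value. Among the genes below, Clec1b, Smim27, Btbd2, Ica1, Cort, Nt5e and Ttc5 had a mean of WT and Hom under 62.6. They reached the filter only through the Het arrays. The place of all these genes among the genes kept is therefore not independent of the difference reported. The distance of Hom from the nearer Het array was larger than the distance between the Het arrays at 24 of the 27. Further probe sets, 17 in all, read 10 of the genes and were mostly below the filter, and 4 of the 17 put Hom on the same side of both Het arrays. Of the 5 further probe sets above the filter, 1 did so, that of Brwd1, by less than 0.1 log2 units.

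Platelet transcripts were the gene list with the largest share below both Het arrays. Of 20 platelet markers on the array 15 were kept, and Hom was below both Het arrays at 12 of the 15 (80%, against 24.7% of all genes) and above both at 0. The lists were drawn up with results of these data in view, Ppbp and Pf4 among them, so this count is a description. Of the 12 below, Clec1b and Alox12 reached the filter of 62.6 only through the Het arrays. With no filter, 13 of 20 (65%, against 19.1% of all genes) lay below both. The median of the 15 was 0.69 log2 units below the mean of the Het arrays, where the median of all genes was 0.04 above it, and lay at -0.43 against Het replicate 1 and -0.78 against Het replicate 2. The difference was therefore seen with each Het array. Ppbp, Clec1b and Pf4 led the list. The next 9 had margins between -0.90 and -0.14, among them the platelet lipoxygenase Alox12 (53.2, 90.8, 100.6 and 48.6), which was chosen after its values were seen, and von Willebrand factor Vwf (662.7, 630.2, 585.9 and 525.2), which endothelial cells also make. The 3 members with Hom between the Het arrays, named after their values were seen, were Gp9, Thbs1 and Selp. Compared with WT, Hom was higher at 9 of the 15, and at 3864 of all 7314 genes.

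The summed intensity of the 15 platelet markers was 3552 in WT and 3192 in Hom, against 5611 and 6668 in Het replicates 1 and 2. The brightest members weigh most in such a sum, in WT Pf4 (964.7), Gng11 (896.7) and Vwf (662.7). By the median of the 15, Hom lay 0.25 log2 units above WT. The Het arrays had the highest sums, and Hom and WT the lowest. Red cell markers did not follow the same order: 7 erythroid genes summed to 2432, 2549, 4221 and 2578, so that Het replicate 1 lay beside WT and Hom. The macrophage sums likewise put Het replicate 1 beside WT and Hom. Whether the number of platelets retained in the tissue differed between samples was not tested.

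The sequences just upstream of Ppbp, Pf4 and Clec1b are shown because these 3 genes had the largest margins among the platelet markers. Ppbp and Pf4 are neighbours in a chemokine cluster of chromosome 5, with start sites 3917 bases apart on the same strand. Each line gives the 250 bases before the start site, 5′ to 3′ on the gene's strand, from RefSeq on GRCm38.p6. Capitals mark GATAA, the core bound by GATA factors, and GGAAG, a core bound by ETS factors, on either strand (TTATC and CTTCC), as matches to letters only. Ppbp lies at chr5:90768268-90768517, Pf4 at chr5:90772185-90772434 and Clec1b at chr6:129397047-129397296, all on the plus strand.
Ppbp: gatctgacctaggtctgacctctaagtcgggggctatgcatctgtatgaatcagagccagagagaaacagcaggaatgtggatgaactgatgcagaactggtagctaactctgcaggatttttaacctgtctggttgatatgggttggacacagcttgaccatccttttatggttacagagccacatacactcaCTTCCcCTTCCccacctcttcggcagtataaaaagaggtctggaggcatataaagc
Pf4: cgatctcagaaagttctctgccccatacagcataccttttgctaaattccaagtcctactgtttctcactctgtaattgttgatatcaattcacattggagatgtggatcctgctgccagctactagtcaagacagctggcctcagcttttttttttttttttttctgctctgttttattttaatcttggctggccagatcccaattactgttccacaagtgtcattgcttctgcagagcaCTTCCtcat
Clec1b: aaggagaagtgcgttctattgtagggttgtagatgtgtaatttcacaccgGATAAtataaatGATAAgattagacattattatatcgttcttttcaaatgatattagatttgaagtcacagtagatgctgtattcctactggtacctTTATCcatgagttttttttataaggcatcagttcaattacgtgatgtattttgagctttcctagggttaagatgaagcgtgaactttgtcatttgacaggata

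The Clec1b window held 3 GATAA matches and no GGAAG, while the Ppbp window held 2 GGAAG matches and the Pf4 window 1, with no GATAA in either. Promoters were found for 12 of the 15 platelet markers. GATAA was present in 4 of the 12, compared with 22.6% of 32851 promoters in the table, and GGAAG in 10 of the 12, compared with 64.1%. None of the 3 windows held both motifs, so no match shown overlaps one of the other motif.

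Collagens showed the opposite order. Of 26 collagen genes on the array, basement membrane collagens aside, 20 were kept, and Hom lay above both Het arrays at 18 of the 20 (90%, against 30.5% of all genes) and below both at 0. The median difference from the Het mean was 0.50 log2 units, but it was 0.20 against Het replicate 1 and 0.71 against Het replicate 2, and Het replicate 2 lay 0.31 below Het replicate 1. Many of the margins were small: with each array centred on the common median, 11 of the 20 (55%) lay above both, against 18.7% of all genes, and with quantile normalization 17 did. Compared with WT, Hom was higher at 12 of the 20, with a median of 0.04, where the median of all genes was 0.02.

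Among fibrillar collagens, Col11a2, a chain of cartilage collagen XI, read 93.1, 49.7, 44.7 and 87.0. Col5a1, the collagen V chain that starts and limits the growth of collagen I fibrils, read 974.3, 841.2, 645.8 and 1043, and Col5a3 read 82.2, 73.4, 76.4 and 86.0. Hom was the highest or next to the highest array in each, and WT was close to it. Among the other collagens, Col15a1, a collagen of the zone beneath basement membranes, read 135.9, 100.3, 92.9 and 184.1. Col9a1, a fibril-associated collagen of cartilage, read 506.6, 349.4, 288.4 and 537.2. Col12a1 was the only collagen 2-fold beyond both Het arrays, and unlike Col11a2 and Col9a1 it was also well above WT.

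**Figure D3:**
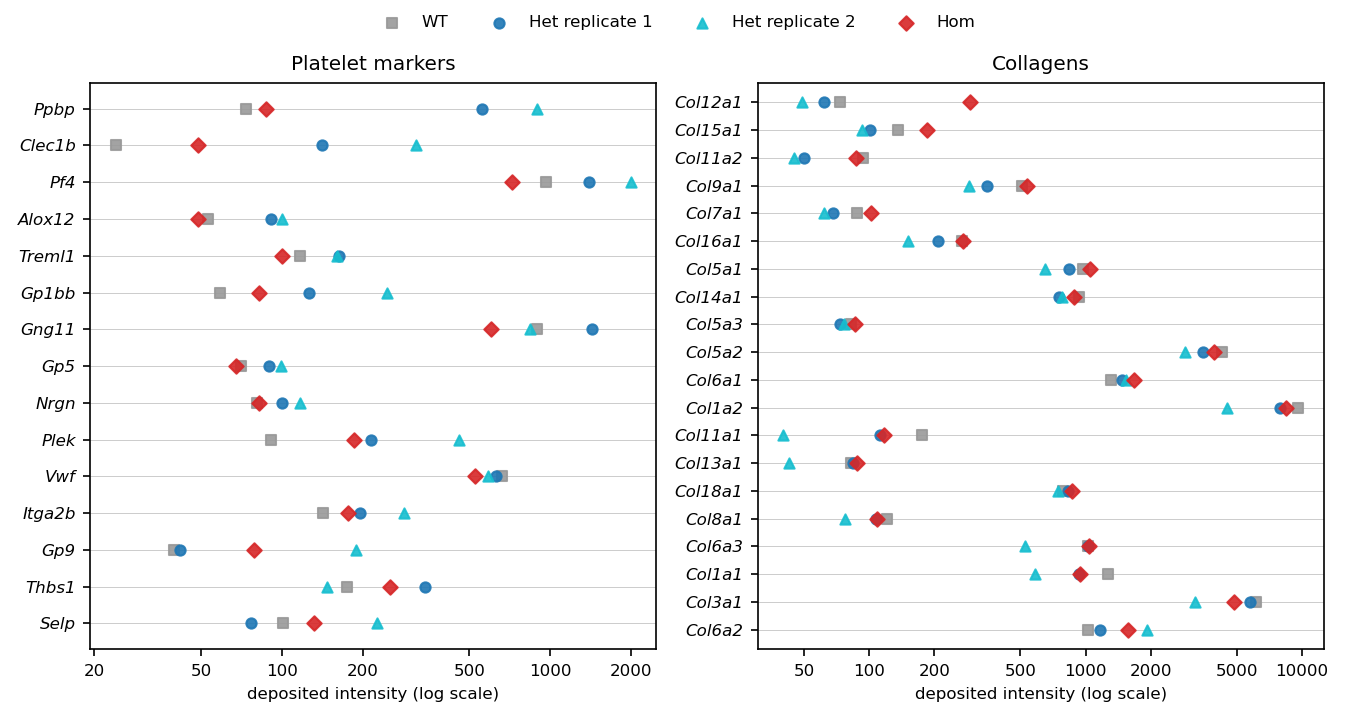
Deposited intensity on a log axis for the 15 platelet markers (left) and 20 collagens (right), ordered by the margin of Hom, with 1 point for each array. In the left panel Hom is to the left of both Het symbols in 12 rows, and in the right panel it is to the right of both in 18, though the symbols of Hom and Het replicate 1 nearly coincide in the lower rows.

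Elastic fibre and microfibril genes lay above both Het arrays at 8 of 16 (50%, against 30.5%) and below both at 0. The median difference was 0.26 against Het replicate 1 and 0.47 against Het replicate 2. Eln, which encodes elastin, read 3843, 2018, 1501 and 3258, and its second probe set read 335.0, 56.6, 16.3 and 226.2. On both Eln probe sets the 2 Het arrays were the lowest and Hom lay between them and WT. Mfap4, a microfibril-associated glycoprotein that takes part in elastic fibre assembly, read 897.3, 361.1, 240.1 and 543.3. Lox, the lysyl oxidase that cross-links elastin and collagen, read 552.7, 317.1, 354.7 and 538.7. In each of these 3 genes both Het arrays were below Hom and WT, and the margins of Mfap4 (0.59) and Lox (0.60) were under 2-fold. The brighter Eln probe set, which stood for the gene, had a margin of 0.69 and the second one a margin of 2 log2 units. With median centring 6 members (37.5%) were above both Het arrays and 4 (25%) below, against 18.7% and 37.4% of all genes at that scaling, and the list's median stayed 0.29 log2 units above that of all genes under both scalings. Against Het replicate 1 alone, without Het replicate 2, 9 members were above and 7 below, where 50% and 49.8% of all genes were. Against Het replicate 2 alone, 15 were above and 1 below, where the shares of all genes were 55.1% and 44.8%.

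The proteoglycan list lay above both Het arrays at 11 of 25 (44%, against 30.5% of all genes) and below both at 2 (8%, against 24.7%). With median centring it was 8 (32%) above and 3 (12%) below, against 18.7% and 37.4% of all genes. The small leucine-rich proteoglycan Fmod, which binds collagen fibrils, read 1011, 655.5, 657.8 and 1067, and its relative Prelp read 820.7, 634.9, 529.2 and 1008. The probes of Fmod and Prelp can cross-hybridise with other transcripts. The lubricant proteoglycan Prg4 read 524.0, 285.1, 358.0 and 600.9. In these 3 genes Hom was the highest array, WT the next and the Het arrays the lowest. The hyaluronan receptor Cd44 went the other way, at 263.5, 523.6, 768.3 and 439.0. Of the matricellular proteins, 7 of 22 (31.8%) lay above both, near the 30.5% of all genes, and 3 (13.6%, against 24.7%) below. Postn, periostin, a regulator of collagen assembly in valves, read 11204, 6125, 5807 and 9182. Tnc, tenascin C, which is made in remodelling tissue, read 140.0, 157.8, 160.5 and 264.8, so that only Hom was high. Cartilage oligomeric matrix protein, Comp, read 244.7, 186.6, 172.9 and 271.1. Among matrix proteases and their inhibitors 7 of 20 (35%, against 30.5%) lay above both and 3 (15%, against 24.7%) below. The membrane protease Mmp14 was the member furthest above (1964, 1424, 1286 and 1974). Collagen processing enzymes lay above both Het arrays at 3 of 15 (20%) and below both at 0, both under the background shares, with the largest margin 0.11 and a median 0.12 above the Het mean. Basement membrane genes divided 4 above (28.6%) and 3 below (21.4%) of 14, near the background shares.

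Markers of valve interstitial cells and fibroblasts included Postn, Lox and Fbln1, which are also in the matrix lists. They lay above both Het arrays at 15 of 23 (65.2%, against 30.5% of all genes) and below both at 2 (8.7%, against 24.7%). With median centring these counts were 6 (26.1%) and 5 (21.7%), where the shares of all genes were 18.7% and 37.4%. Their summed intensity was 60399, 51678, 38817 and 51745, so Hom was level with Het replicate 1. S100a4, a calcium-binding protein of fibroblasts and leukocytes, was an exception at 359.1, 568.5, 1831 and 342.6.

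**Figure D4:**
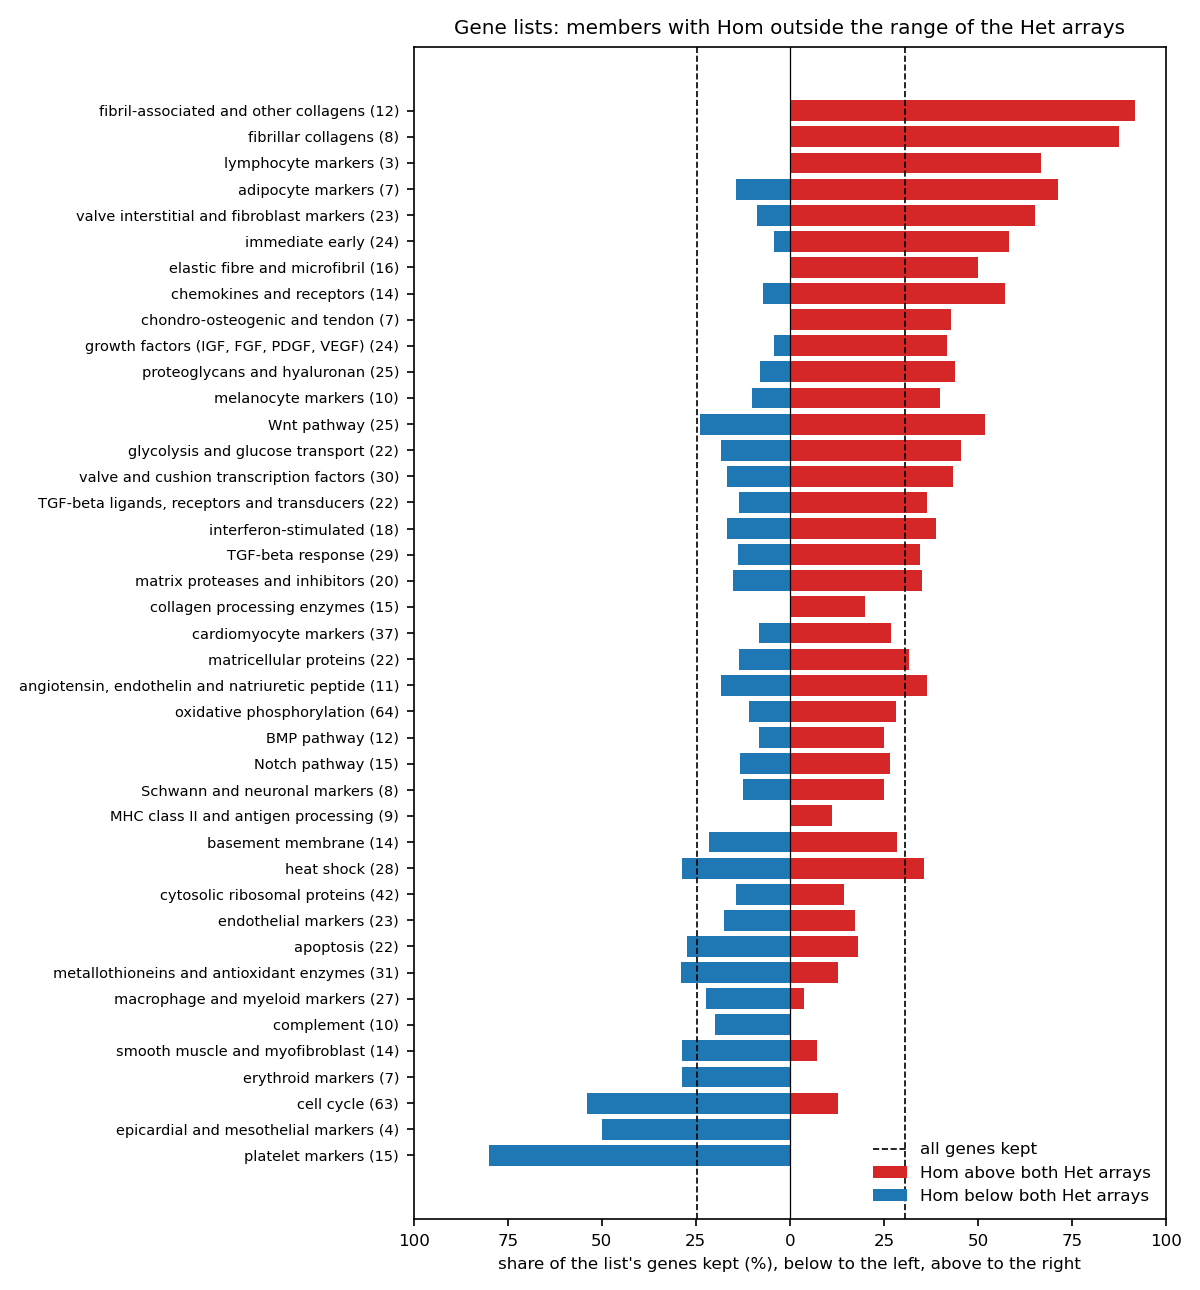
Share of the kept genes of each list (number in brackets) with Hom above both Het arrays (red, to the right) or below both (blue, to the left), in percent. The dashed lines are the shares of all genes kept, 30.5% above and 24.7% below. The collagen lists are at the top (91.7% and 87.5% above) and the platelet markers at the bottom (80% below). Lists with few genes, such as the 3 lymphocyte markers, move far with 1 gene.

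Transcription factors of the valve and endocardial cushions lay above both Het arrays at 13 of 30 (43.3%, against 30.5% of all genes). They lay below both at 5 (16.7%, against 24.7%). After Tbx5 came Hand1, a basic helix-loop-helix factor of heart development, at 92.1, 55.3, 72.5 and 116.3, and Nkx2-5, the homeodomain factor of the cardiac lineage, at 109.2, 95, 95.4 and 139.3. Msx1, a BMP-responsive factor of the cushions, read 355.2, 300.8, 243.2 and 394.7. In these 4 genes Hom was the highest array. Snai2, a repressor that drives epithelial-mesenchymal transition, read 54.3, 77.3, 83.0 and 64.8, and Nfatc3 read 73.3, 95.3, 96.4 and 80.3, both with Hom between WT and the Het arrays. The probes of Msx1 and Nfatc3 can cross-hybridise with other transcripts.

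Cell cycle genes were the second list with Hom mostly below. Hom lay below both Het arrays at 34 of 63 (54%, against 24.7% of all genes) and above both at 8 (12.7%, against 30.5%). The median difference was -0.14 from Het replicate 1 and -0.24 from Het replicate 2, with the median difference from the Het mean 0.22 log2 units below that of all genes, and 0 members were 2-fold beyond both. With median centring 39 lay below and 4 above, and with quantile normalization 37 and 8. The 3 members with the largest margins below were Rpa2, Rfc5 and Rfc4. Rpa2, a subunit of the complex that coats single-stranded DNA, read 95.4, 136.9, 171.2 and 70.7. Rfc5 and Rfc4, subunits of the clamp loader, read 77.7, 85.2, 121.7 and 57.4 and 59.8, 87.5, 92.3 and 59.6. Mcm2, a subunit of the replicative helicase that was named from earlier results of these data, had a margin of -0.28 and read 270.3, 515.5, 558.2 and 424.4, and its second probe set 153.3, 204.7, 164.7 and 156.4. In Mcm2 Hom was between WT and the Het arrays, whereas in Rpa2 and Rfc5 Hom was the lowest array. The replication enzyme Fen1, a flap endonuclease, at 418.4, 412.0, 407.8 and 679.1, and the centrosomal kinase Nek2, at 48.8, 64.9, 45.4 and 113.9, were the members furthest above. The probes of Fen1, Rfc4 and the first Mcm2 probe set can cross-hybridise with other transcripts. Compared with WT, Hom was higher at 37 of the 63, a share near that of all genes (3864 of 7314).

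**Figure D5:**
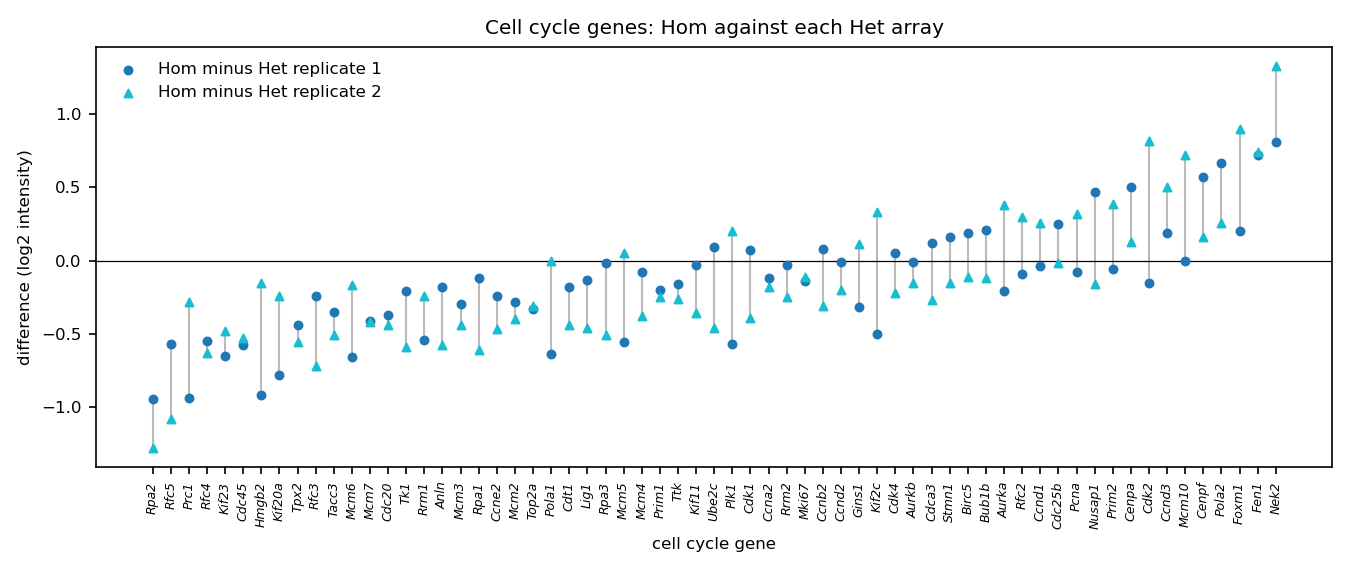
Log2 difference of Hom from Het replicate 1 (circles) and from Het replicate 2 (triangles) for each of the 63 cell cycle genes, joined by a line and ordered by their mean. In 34 genes both symbols are below 0 and in 8 both are above.

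Immediate early genes are transcribed within minutes of a stimulus. They lay above both Het arrays at 14 of 24 (58.3%, against 30.5% of all genes). They lay below both at 1 (4.17%, against 24.7%). The median difference was 0.23 from Het replicate 1 and 0.29 from Het replicate 2. The orphan nuclear receptor Nr4a1 read 246.2, 212.4, 161.6 and 339.0, the phosphatase Dusp1 363.6, 319.3, 292.2 and 454.2, and the stress factor Atf3 57.3, 87.8, 91.9 and 128.3. Hom was the highest array in all 3. With median centring the list counted 11 above (45.8%) and 5 below (20.8%), against 18.7% and 37.4% of all genes. Heat shock genes divided 10 above (35.7%) and 8 below (28.6%) of 28, near the background of 30.5% and 24.7%. The co-chaperone Bag3 was furthest above (78.0, 100.8, 92.0 and 141.0). Metallothioneins and antioxidant enzymes lay below both at 9 of 31 (29%, near the 24.7% of all genes) and above both at 4 (12.9%, against 30.5%). Among them Mt1 had the largest margin below (268.1, 238.4, 171.7 and 133.5), read by probes that can cross-hybridise with other transcripts.

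Genes of the TGF-beta pathway did not stand far from the background in the share above both Het arrays. Ligands, receptors and transducers lay above both at 8 of 22 (36.4%, against 30.5% of all genes) and below both at 3 (13.6%, against 24.7%). The list of response genes lay above both at 10 of 29 (34.5%) and below both at 4 (13.8%). Tgfb1, the ligand that microfibrils hold in latent form, read 109.3, 76.3, 66.9 and 114.4, with WT and Hom together. Tgfb2 read 253.2, 203.8, 198.6 and 249.8, likewise with WT and Hom together. The receptor Tgfbr1 read 406.4, 369.1, 385.9 and 350.1, and the activin subunit Inhba 1116, 927.2, 1218 and 887.1, with Hom lowest in both. The BMP pathway counted 3 above (25%) and 1 below (8.33%) of 12, and the Notch pathway 4 above (26.7%) and 2 below (13.3%) of 15. Both shares above were under the 30.5% of all genes, and both shares below were under the 24.7%. In the Notch list the ligand Dll1 read 459.5, 305.3, 158.6 and 424.0 and the receptor Notch2 342.9, 297.0, 239.0 and 203.7. In the Wnt list 13 of 25 (52%, against 30.5%) lay above both and 6 (24%, against 24.7%) below. The secreted Wnt inhibitors Sfrp2 (1081, 649.2, 432.3 and 998.6) and Wif1 (268.9, 104.5, 129.3 and 165.8) were among those above, and the ligand Wnt5a (72.6, 80.6, 71.3 and 51.3) was lowest in Hom.

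Growth factors of the IGF, FGF, PDGF and VEGF families and their receptors lay above both Het arrays at 10 of 24 and below both at 1. The share above was 41.7%, against 30.5% of all genes, and the share below was 4.17%, against 24.7%. Vegfb, a ligand of VEGF receptor 1, had the largest margin, at 86.0, 83.3, 52.5 and 140.3. The list of angiotensin, endothelin and natriuretic peptide genes counted 4 above (36.4%, against 30.5%) and 2 below (18.2%, against 24.7%) of 11. Its vasoconstrictor Edn1 read 111.2, 205.8, 258.6 and 134.2, and the C-type natriuretic peptide Nppc read 133.5, 62.1, 52.4 and 100.6. For both, Hom lay on the WT side of the Het arrays, with Edn1 low and Nppc high. The glucose transporters also divided, Slc2a3 reading 69.8, 161.5, 208.3 and 83.9 and the insulin-regulated Slc2a4 58.9, 73.5, 27.8 and 110.8. The probes of Slc2a3 can cross-hybridise with other transcripts. The glycolysis list as a whole counted 10 above (45.5%, against 30.5%) and 4 below (18.2%, against 24.7%) of 22.

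Among immune genes, 14 of 43 chemokines and their receptors were kept. Hom lay above both Het arrays at 8 of the 14 (57.1%, against 30.5% of all genes) and below both at 1 (7.14%, against 24.7%). These counts depended on the filter. With no filter, 16 of 43 (37.2%, against 30.2%) lay above both and 8 (18.6%, against 19.1%) below. The median difference was then 0.00. With the filter at the 75th percentile, 1 of 4 lay above and 1 below. After Cxcl13, the margins were 0.39 for Cxcl12, which retains haematopoietic cells in tissue (282.3, 249.0, 199.8 and 326.5), and 0.39 for Cx3cl1 (93.5, 89.0, 73.3 and 116.3). MHC class II and antigen processing genes had 8 of 9 members between the Het arrays, where 3273 of all 7314 genes were. Complement genes had 0 above and 2 below (20%, against 24.7%) of 10. Interferon-stimulated genes counted 7 above (38.9%) and 3 below (16.7%) of 18, and Ifitm1 read 60.0, 92.2, 218.8 and 68.9. The class I molecule H2-K1 was highest in Hom (480.5, 327.1, 491.8 and 686.1), with a difference from the Het mean of 0.77. With median centring, where another H2-K1 probe set stood for the gene, the difference was -0.20. The probes of the one shown can cross-hybridise with other transcripts.

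The other cell type markers mostly placed Hom between the Het arrays, apart from the adipocyte and lymphocyte lists. Of all genes, 3273 of 7314 lay between them, 30.5% above both and 24.7% below both. Cardiomyocyte markers were between them at 24 of 37, because Het replicate 2 was far below: the median difference of Hom was -0.08 from Het replicate 1 and 1.12 from Het replicate 2. Hom was above both Het arrays at 10 of the 37 (27%, against 30.5% of all genes) and below both at 3 (8.11%, against 24.7%). Among the 10 was Actn2, the actinin of the sarcomere's Z disc, at 576.9, 644.4, 237.1 and 827.6. Among the 3 was Myl4, at 1976, 1481, 1590 and 1208. Macrophage and myeloid markers were between them at 20 of 27, with medians of 0.13 and -0.55, and of the 6 below both, Pf4 is also in the platelet list. Oxidative phosphorylation genes were between at 39 of 64 and ribosomal protein genes at 30 of 42. Smooth muscle and myofibroblast genes counted 1 above (7.14%) and 4 below (28.6%) of 14, and Tpm2, a tropomyosin, read 316.1, 323.1, 1112 and 209.3. Endothelial markers counted 4 above (17.4%) and 4 below (17.4%) of 23, and apoptosis genes 4 (18.2%) and 6 (27.3%) of 22. Adipocyte markers counted 5 above (71.4%) and 1 below (14.3%) of 7. Their median was 0.82 log2 units above the Het mean, 0.16 against Het replicate 1 and 0.74 against Het replicate 2. Melanocyte markers, which mark the pigment cells of mouse valves, counted 4 above (40%) and 1 below (10%) of 10. Of erythroid markers 0 lay above and 2 below (28.6%) of 7, and of epicardial and mesothelial markers 0 and 2 (50%) of 4. Schwann and neuronal markers counted 2 above (25%) and 1 below (12.5%) of 8. Lymphocyte markers counted 2 above (66.7%) and 0 below of 3, and chondro-osteogenic and tendon genes 3 (42.9%) and 0 of 7. The part of cell composition in the differences of the matrix lists was not tested.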

How the data were processed

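The authors deposited 1 linear intensity per array for 22690 probe sets, on 4 arrays. The software that made them is not given in the sources used here. In the deposited values, the mean trimmed by 2% at both ends was 150.1 on every array. The deposited scaling was kept, because centring each array on the common median moved the median difference between Hom and the mean of the Het arrays from 0.04 to -0.11.

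Gene names came from the platform annotation; 691 had several genes, 1606 none and 64 were controls, and 20351 identifiers matched the reference table. Intensities were floored at 19 and log2 transformed. The probe set of highest mean stood for a gene, and genes under a mean of 62.6 were left out, which favours genes high on any array. limma 3.58.1 in R 4.3.3 fitted 3 groups over all 4 arrays, with 1 residual degree of freedom and Benjamini-Hochberg adjustment, and was tested on simulated data. Plots were made in matplotlib 3.10.9 and Python 3.11.15. The Het arrays shared identical values at 82 probe sets and were not duplicates. The labels do not name separate animals, so p-values cover only the spread between these arrays, which may be technical, and precision is limited by how few arrays there are.

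The comparison and 41 gene lists were chosen with earlier results of these data known. Named genes are the 15 with the largest margin on each side, the 3 with the largest margin on each side of each list, any list member 2-fold beyond both Het arrays, and Col12a1, Cxcl13, Ppbp, Pf4, Tbx5, Mfap4, Eln, Mcm2 and Lyz2. Alternatives were 2 other scalings, other filters and floors, the mean of all probe sets, size limits of 1.5 and 3, other limma settings and leaving out each Het array.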

Additional observations from a re-analysis of the deposited data

How the results depend on the processing

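Of 1688 values of named genes under other settings, 1541 moved by less than the spread between the Het arrays. That count cannot measure robustness, because much of it was fixed by construction. Leaving out 1 Het array moves a difference by less than that spread wherever the probe set stays the same. Other filters and no floor leave most values unchanged. In 11 genes, 12 values changed sign: 6 with median centring, 3 without Het replicate 2 and 3 where probe sets were averaged. Of these, Rapgef3 alone was 2-fold beyond both Het arrays, and was at -0.17 with median centring, where another of its probe sets had the highest mean. The 15 genes at least 2-fold above both Het arrays became 99 with no filter on mean level, 1 with the filter at the 75th percentile, 134 at 1.5-fold and 3 at 3-fold, and the 12 below became 48, 2, 87 and 4, or 4 with the floor at the median. Without Het replicate 2, 59 lay above and 35 below Het replicate 1, and without Het replicate 1, 295 above and 165 below Het replicate 2. Median centring gave 10 and 16 and quantile normalization 11 and 14; of the 27 genes, 22 and 23 stayed 2-fold beyond both. The 2231 genes above both at any size became 1368 with median centring, 3739 with no filter, 953 with the stricter filter and 3647 to 4038 against 1 Het array. The 1810 below both became 2733 with median centring, 1071 with the stricter filter and 3283 to 3632 against 1 Het array. limma called 0 genes, but 1 with quantile normalization and 1 with a trended, robust prior, Ppbp in each, and 68 at an unadjusted 0.05. Apart from the filters, size limits and left-out arrays, whose own construction changes the counts, the cause was not tested. The limma fit could not be made without a Het array, which leaves no residual degree of freedom. Counts of list members under other settings were chosen after seeing the data. Platelet markers lay below both Het arrays at 12 of 15 with each scaling, where 24.7% to 37.4% of all genes did. With no filter it was 13 of 20 (65%, against 19.1%). Against 1 Het array nearly every gene is either above or below, so the background is higher. Without Het replicate 1, 14 of 15 platelet markers lay below, against 44.8% of all genes. Without Het replicate 2, it was 12 of 13, against 49.8%. No paired analysis was possible because Hom is 1 array. The single Hom array and the dim signal of most genes with large margins limit every result.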

Other observations

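Lyz2, the lysozyme of macrophages, read 314.5, 322.3, 858.1 and 339.0 in WT, Het replicate 1, Het replicate 2 and Hom, and so lay between the Het arrays in Hom. Hom and WT were at least 2-fold apart at 83 of the 7314 genes (1.13%), fewer than the 102 between Hom and Het replicate 1, and the SD of their log2 differences over genes was 0.33.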
